A study of Mus musculus with 12 samples.

Results

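The comparison described here sets blood LSK cells collected after CWHM-823 plus tGro-b against blood LSK cells collected after AMD3100. It uses 6 of the 12 arrays of the series, 3 per treatment, chosen by the treatment and tissue that the sample labels give. All samples were LSK cells, the lineage-negative, Sca-1 positive, Kit positive fraction that holds hematopoietic stem and progenitor cells, sorted from male DBA2/J mice. The AMD3100 mice were sampled 1 hr after treatment. No time is given for the CWHM-823 plus tGro-b mice, so the times after injection cannot be set side by side. The other 6 arrays are marrow LSK cells of mice injected with PBS (3 arrays) and blood LSK cells of mice given 9 injections of G-CSF over 5 days (3 arrays). They entered the statistical fit and are quoted beside the values of the 6 arrays. Arrays with the same number shared a slide, and each slide held 1 array of every group. The labels do not say how many mice stand behind an array, and the p-values cover no more than the array-to-array spread, which may be technical.

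Hematopoietic stem and progenitor cells are held in the marrow by the chemokine CXCL12, which signals through CXCR4, and by adhesion molecules such as the integrin VLA4, a dimer of the chains encoded by Itga4 and Itgb1. AMD3100, also called plerixafor, blocks CXCR4. CWHM-823 is an inhibitor of VLA4, and tGro-b is a truncated form of the chemokine Gro-beta, which activates CXCR2 on neutrophils. Either treatment moves stem and progenitor cells into the blood within a short time, whereas G-CSF does so over days. The comparison asks how the RNA of the cells in blood differs between the 2 rapid routes.

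Levels are given as the log2 of the processed spot signal minus the 75th percentile of the array, so that 0 is the 75th percentile and each unit is a doubling. A difference is the CWHM-823 plus tGro-b value minus the AMD3100 value, from a linear model (limma) with a mean per group and the slide as a block over all 12 arrays. A gene passed at a Benjamini-Hochberg adjusted p under 0.05, and fitted differences carry their SE. The 75th percentile of the raw signal was 1086 to 1503 on the AMD3100 arrays and 1823 to 1922 on the CWHM-823 plus tGro-b arrays, within a range of 1086 to 2637 over the series. From 70.7% to 83.3% of probes were well above background, and 0 spots were saturated. Both groups carried RNA of the 2 genes that give the gate its S and K. Kit, the receptor behind the K, lay at 3.71, 3.15 and 3.63 after CWHM-823 plus tGro-b and at 3.51, 3.12 and 3.35 after AMD3100. Ly6a, which encodes Sca-1, lay at -0.18, -0.44 and -1.29 against -0.96, -0.21 and -1.31. The ranges of the 2 groups overlapped for both genes, with differences of 0.17 ± 0.14 (adjusted p = 0.384) and 0.19 ± 0.26 (adjusted p = 0.58). They do not stand for all LSK markers: of 12 such genes, 6 passed as higher after CWHM-823 plus tGro-b and 0 as lower, against 8.27% of all genes each way.

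Of 23795 genes, 3935 passed, or 16.5%. Higher levels after CWHM-823 plus tGro-b were found for 1968 genes (8.27%) and lower levels for 1967 (8.27%), and 9646 had an unadjusted p under 0.05. The list counts below stand beside these 8.27% in each direction. At least a 2-fold difference was reached by 613 of the higher and 812 of the lower genes. Among genes with a gene symbol and above background on all 6 arrays, the 5 largest increases were those of Hba-a1, Hba-a2, Nr4a3, Csrnp1 and Spry1. The largest decrease was that of H2al1o. The arrays of the 2 groups did not overlap for 2629 genes that were higher (11%) and 3112 that were lower (13.1%). The median difference over all genes was -0.17, and it lay between -0.06 and -0.04 under quantile normalization, cyclic loess normalization and the authors' own table, which also raised the share of higher genes among those that passed (58.6% with quantile normalization, against 1968 of 3935 here).

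How many genes passed rested on the slide block and on single arrays. Without the block, 37 genes passed (29 higher, 8 lower), of 4717 with an unadjusted p under 0.05. With array 1, 2 or 3 of CWHM-823 plus tGro-b left out, 25, 151 and 1500 genes passed, and with array 1, 2 or 3 of AMD3100 left out, 100, 1115 and 3060. A fit of the 6 arrays alone called 0 genes with limma, with 7002 at an unadjusted p under 0.05. In all 6 fits that left out an array, 23 of the 3935 genes passed, among them Nr4a3, Spry1, Csrnp1, Hba-a1 and Hbb-bt. Of the 147 genes named by the rule for this text, 115 passed, and 10 of these also passed without the block. Among the 115, 16 passed in 0 of the 6 fits that left out an array. Those 16 include Egr2, Tcf7, Kynu, Fam229b, Mfsd2b, Itga9, Nkg7, Fancd2 and Tob1.

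Immediate early genes, the transcription factors and regulators that cells switch on within minutes of a stimulus without new protein synthesis, were measured for 30 members. Of these, 13 passed as higher after CWHM-823 plus tGro-b and 0 as lower (1 lower at an unadjusted p under 0.05), against 8.27% higher over all genes. The median difference was 0.74, and 27 of 30 differences lay above 0. Nr4a3, an orphan nuclear receptor induced by many stimuli, lay at 0.58, 0.15 and 0.28 after CWHM-823 plus tGro-b and at -1.80, -2.88 and -1.95 after AMD3100. The 2 groups did not overlap on any array, and the difference was 2.55 ± 0.21 (5.85-fold, adjusted p = 0.00186). In marrow Nr4a3 lay at -6.17, -6.47 and -5.94 and was well above background on 0 arrays. Both blood groups stood above these readings, but the distance to them is not a measured one. After G-CSF Nr4a3 lay at -4.00, -4.31 and -4.24.

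Csrnp1, a nuclear protein of the same early class, read -0.30, -0.20 and -0.67 after CWHM-823 plus tGro-b against -2.35, -2.73 and -2.44 after AMD3100, a difference of 2.12 ± 0.22 (4.34-fold, adjusted p = 0.00576). Egr2, a zinc finger factor downstream of MAP kinase, read 1.46, 1.43 and 1.40 against -0.77, -0.33 and -0.54 (1.98 ± 0.52, adjusted p = 0.0394). Egr2 passed in 0 of the 6 fits that left out an array. Atf3, a stress-induced bZIP factor, read 2.54, 2.31 and 2.22 against 0.89, -0.34 and 1.08 (1.81 ± 0.40, adjusted p = 0.0288). In these 3 genes every CWHM-823 plus tGro-b array lay above every AMD3100 array. Nr4a2 differed by 1.74 ± 0.24 (adjusted p = 0.0136). Maff, a small Maf factor, was well above background on 3 arrays after CWHM-823 plus tGro-b and on 0 after AMD3100, and was at least 2.43-fold higher (adjusted p = 0.0163).

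The other members that passed, named after their values were seen, were Klf4 (1.21), Junb (1.19), Nr4a1 (1.15), Srf (1.14), Fosl2 (0.83), Fosb (0.72) and Zfp36l1 (0.65). The classical members did not all pass: Egr1 read 3.00, 2.95 and 4.24 against 2.56, 2.24 and 3.05 (0.78 ± 0.30, adjusted p = 0.0924), and Fos read 2.97, 2.93 and 4.03 against 2.64, 2.41 and 3.17 (0.57 ± 0.22, adjusted p = 0.0862). For both, array 3 was the highest in either group and the groups overlapped, although on each slide the CWHM-823 plus tGro-b array was the higher. Against marrow, which both contrasts share, 20 members passed as higher after CWHM-823 plus tGro-b (median 2.04; 0.765% of all genes passed as higher there) and 17 after AMD3100 (median 1.17; 5.47% of all genes). Without the slide block 3 members passed, and 2 to 9 with an array left out.

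**Figure D1:**
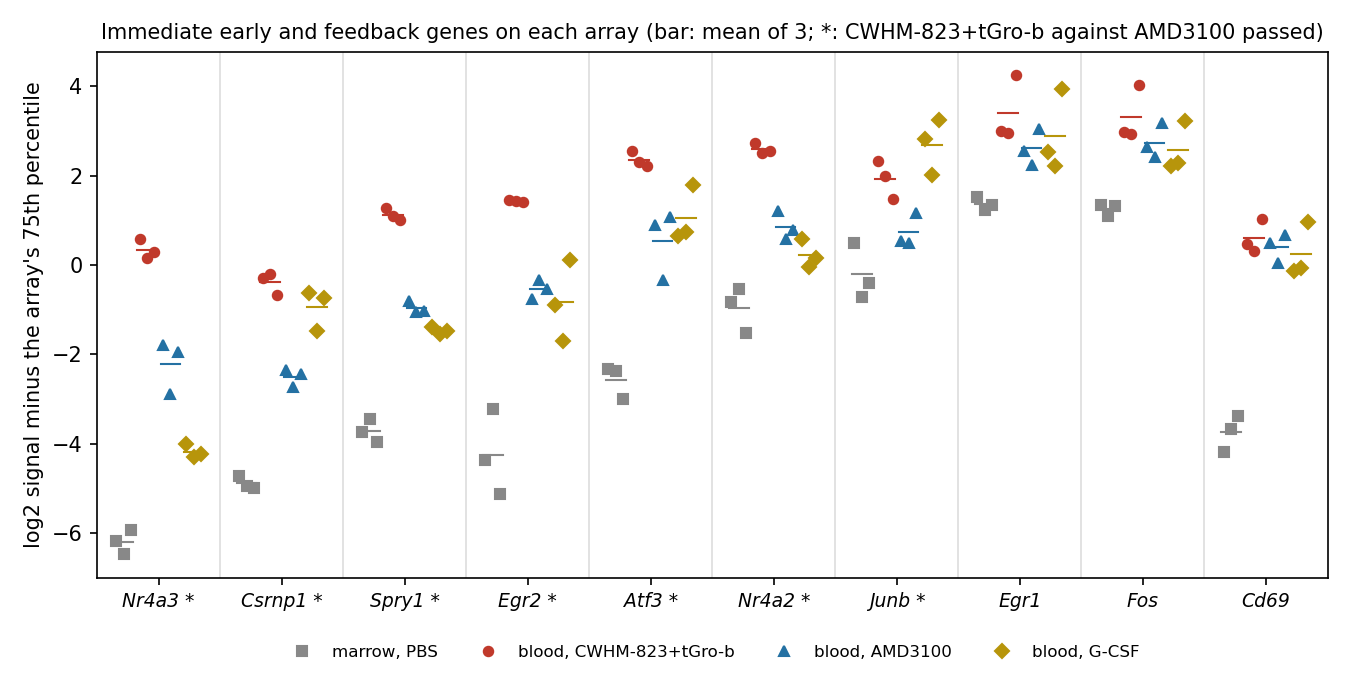
Level of 10 immediate early and feedback genes on each array (log2 signal minus the 75th percentile of the array; points are arrays, bars the mean of 3). Nr4a3, Csrnp1, Spry1, Egr2, Atf3 and Nr4a2 are highest on the 3 CWHM-823+tGro-b arrays among marrow, CWHM-823+tGro-b and AMD3100 arrays, whereas Egr1, Fos and Cd69 overlap between the 2 treatments.

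The upstream stretches of 2 early genes are shown for the response elements this class is known for. Capitals mark CArG boxes, the sites bound by serum response factor, in Srf (chr17:46556163-46556272, minus strand) and a full cAMP response element, TGACGTCA, in Maff (chr15:79347480-79347509, plus strand, before the middle of its 3 listed starts). Both are from RefSeq, build GRCm38.p6, and end before the transcription start.
Srf: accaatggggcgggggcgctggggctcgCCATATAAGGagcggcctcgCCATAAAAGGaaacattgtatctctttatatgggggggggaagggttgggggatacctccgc
Maff: ggctggggcggTGACGTCActgcatgactg
Searched on both strands of the window from 250 bases before to 50 after each start, the CArG box was held by 2 of the 13 early genes that passed and by 1.67% of the 13822 tested genes with a listed promoter. The cAMP response element was held by 1 of the 13 and by 2.92% of all. The match is to letters and does not show binding.

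MAP kinase feedback inhibitors, which these pathways switch on to limit themselves, gave a mixed picture. Of 13 measured, 2 passed as higher and 0 as lower (2 lower at an unadjusted p under 0.05), with a median of 0.30. Over all genes 8.27% passed in each direction. Spry1, a Sprouty protein that restrains receptor tyrosine kinase signalling, read 1.27, 1.10 and 1.00 after CWHM-823 plus tGro-b and -0.82, -1.05 and -1.03 after AMD3100. The groups were far apart and the spread within each was small (2.09 ± 0.16, 4.25-fold, adjusted p = 0.00186). Marrow arrays read -3.74, -3.45 and -3.96. Dusp4, a nuclear MAP kinase phosphatase, differed by 1.14 ± 0.32 (adjusted p = 0.0449), while Dusp6, the phosphatase most tied to ERK, differed by 0.14 and did not pass.

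Among 22 NF-kB target and inflammatory genes, 3 passed as higher and 2 as lower (median 0.27), where 8.27% of all genes passed each way. Ccl4, a chemokine, read 4.08, 3.70 and 3.51 against 2.42, 1.58 and 2.08 (1.73 ± 0.42, adjusted p = 0.0341). Nfkbid, an atypical inhibitor of NF-kB, differed by 0.83 ± 0.19, and Ptgs2, the inducible cyclooxygenase, was above background only on the CWHM-823 plus tGro-b side of this pair (3 arrays against 0) and at least 2.2-fold higher. Il1b (-0.72 ± 0.14) and Ccl5 (-0.81 ± 0.16) were lower. Of 17 glucocorticoid response genes, 3 passed as higher and 0 as lower (1 lower at an unadjusted p under 0.05; median 0.37). Sgk1, a kinase gene and classical glucocorticoid target, read 1.37, 0.89 and 0.86 against -0.42, -1.18 and -0.87, with no overlap (1.86 ± 0.27, adjusted p = 0.0168). Klf9 was above background on 3 arrays against 1 (2.24 ± 0.39), and Tsc22d1 differed by 0.71 ± 0.16.

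Of 20 Socs, Pim and STAT target genes, which cytokine receptors switch on through JAK kinases, 6 passed as higher and 0 as lower (0 lower at an unadjusted p under 0.05; median 0.47). Cish, a cytokine-induced feedback inhibitor, read 0.53, 0.12 and 0.39 against -0.81, -1.93 and -0.38 (1.39 ± 0.26, adjusted p = 0.0231). Stat5b, a transducer of these receptors, read 1.30, 1.02 and 1.10 against -0.41, -0.14 and 0.31 (1.22 ± 0.22, adjusted p = 0.0224). In both genes the CWHM-823 plus tGro-b arrays lay above all AMD3100 arrays. Marrow read 1.39, 1.01 and 0.85 for Stat5b, a range that overlapped that of the CWHM-823 plus tGro-b arrays. Mcl1, a survival gene, differed by 0.74 ± 0.17. The Socs2 difference was 0.68 ± 0.17, but its probe is placed on chromosome 12 and the gene on chromosome 10. Without the block 0 of the 6 passed with limma, and 8 members had an unadjusted p under 0.05.

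Globin genes were among the largest differences. Of 6 tested, picked by symbol after the values were seen, 4 passed as higher and 2 did not pass, with differences not above 0. Hba-a1, an alpha-globin gene (probe at chr11:32183955-32184014, mm9), read 3.92, 3.74 and 3.18 after CWHM-823 plus tGro-b and 0.07, 0.27 and -0.01 after AMD3100. The groups were separated by more than 3 doublings on each slide (3.50 ± 0.34, 11.3-fold, adjusted p = 0.00471). Hba-a2 read 4.40, 4.09 and 3.55 against 0.54, 1.18 and -0.14 (3.48 ± 0.38, adjusted p = 0.00732). The 2 alpha-globin genes are near-identical copies, so their signals are not independent. Hbb-bt, an adult beta-globin gene, read 0.15, -0.02 and -1.20, whereas it was not well above background on any AMD3100 array, and it was at least 9.24-fold higher (adjusted p = 0.00384). Hbb-b2 was above background on 3 arrays against 1, with a difference of 4.05 ± 0.60 (adjusted p = 0.0185).

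Globins were also above marrow after CWHM-823 plus tGro-b, by 4.45 ± 0.34 for Hba-a1 (adjusted p = 0.000335), while the AMD3100 difference from marrow was 0.95 ± 0.34 (adjusted p = 0.0924). For Hba-a2 the AMD3100 difference from marrow was 1.41 ± 0.38 and passed (adjusted p = 0.043). Of the 6 globin genes, 4 passed as higher than marrow after CWHM-823 plus tGro-b and 2 after AMD3100 (0.765% and 5.47% of all genes). After G-CSF Hba-a1 read 2.73, 2.82 and 2.85, below each CWHM-823 plus tGro-b array. Of 9 heme synthesis enzymes, 4 passed as higher and 0 as lower (0 lower at an unadjusted p under 0.05; median 0.79). Cpox, the coproporphyrinogen oxidase gene, was above background on 3 arrays against 0 and at least 3.21-fold higher (adjusted p = 0.0102). Urod read 1.94, 1.58 and 1.31 against 0.58, -0.01 and 0.71, with no overlap (1.18 ± 0.20, adjusted p = 0.0211). Fech, which inserts iron to make heme, differed by 1.02 ± 0.21, and Alas2, the erythroid form of the first enzyme of the pathway, by 1.36 ± 0.37 with 1 AMD3100 array above background. Uros (0.79), Alad (0.52), Ppox (0.00) and Alas1 (-0.33) did not pass.

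Cpox read -1.57, -1.56 and -1.54 in marrow and -1.84, -1.54 and -2.25 after CWHM-823 plus tGro-b, while the AMD3100 arrays gave -3.98, -3.86 and -3.70, which were not well above background. The marrow and CWHM-823 plus tGro-b values differed by -0.32 (adjusted p = 0.626). Aqp1, a water channel of red cells and other tissues, was likewise not well above background on any AMD3100 array and was at least 2.16-fold higher after CWHM-823 plus tGro-b (adjusted p = 0.0132). Some genes of the red cell membrane did not pass. The difference of Slc4a1, the anion exchanger band 3, was -0.58 ± 0.17 (adjusted p = 0.0502), and those of Ank1, Sptb and Ermap were -0.12, -0.77 and -0.73.

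The summed level of the 9 measured erythroblast and reticulocyte markers, in multiples of the 75th percentile, was 46.4, 37.6 and 26.2 on the CWHM-823 plus tGro-b arrays and 6.74, 7.16 and 4.95 on the AMD3100 arrays. Most of the CWHM-823 plus tGro-b sums came from Hba-a1 and Hba-a2, the near-identical copies. Of these 9 markers 6 passed as higher and 0 as lower (1 lower at an unadjusted p under 0.05), and 4 of the 6 are globins. The sum was 6.2 to 7.25 in marrow and 18.2 to 20.4 after G-CSF. The part of red cell RNA in the globin and heme differences was not tested. In RNA from a sorted pool, more cells of a type and more RNA per cell cannot be told apart. On the list of 20 erythroid genes 7 passed as higher and 0 as lower (5 lower at an unadjusted p under 0.05). Without the block 3 of the 20 passed, and 2 to 6 with an array left out.

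**Figure D2:**
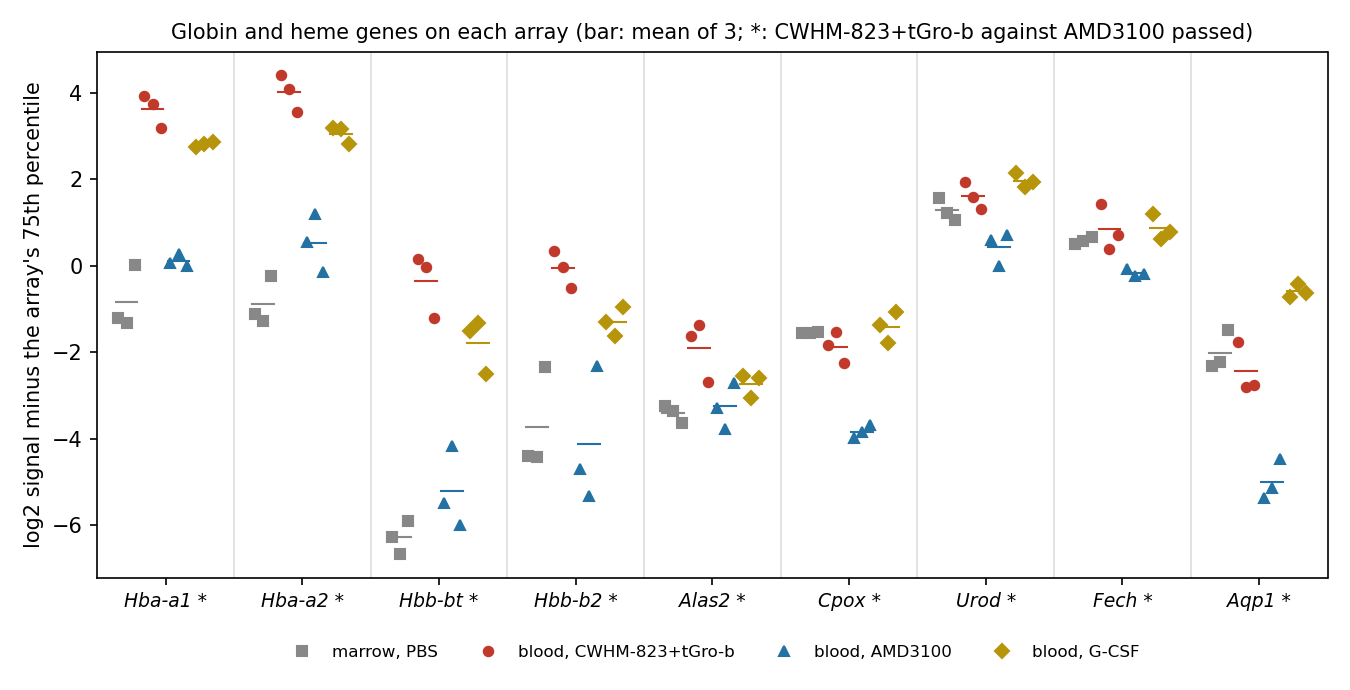
Level of 4 globin genes, 4 heme synthesis genes and Aqp1 on each array (log2 signal minus the 75th percentile of the array; points are arrays, bars the mean of 3). The globins are high on CWHM-823+tGro-b and G-CSF arrays and lower on AMD3100 and marrow arrays, whereas Cpox and Aqp1 are low on AMD3100 arrays alone.

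Of 28 transcription factors of stem cells, 8 passed as higher and 0 as lower (0 lower at an unadjusted p under 0.05), with a median of 0.46 and 24 differences above 0. Mecom, which encodes EVI1 and is needed for long-term stem cells, read -0.14, -0.73 and -0.41 against -1.56, -1.57 and -1.83 (1.22 ± 0.19, 2.34-fold, adjusted p = 0.0185). Prdm16, its close relative, read -1.40, -1.74 and -1.57 against -2.47, -3.01 and -2.51 (1.09 ± 0.20, adjusted p = 0.0224). In both genes the groups did not overlap. Hlf, a stem cell bZIP factor, read 1.96, 1.87 and 1.80 against 1.10, 1.15 and 1.04 (0.78 ± 0.16, adjusted p = 0.0264).

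Marrow values put these differences in place. Hlf read 2.77, 2.41 and 2.04 in marrow, so that the AMD3100 difference from marrow was -1.31 (adjusted p = 0.00444) and that of CWHM-823 plus tGro-b -0.53 (adjusted p = 0.21). For Mecom the same values were -1.32 (adjusted p = 0.00686) and -0.10 (adjusted p = 0.881). Over the list, 15 of 28 members passed as lower than marrow after AMD3100 (7.62% of all genes did) and 1 after CWHM-823 plus tGro-b (0.315% of all genes). The member that fell in the latter was Mycn, by 1.47 on the log2 scale, and it fell by 1.63 after AMD3100. Tal1, Lyl1, Pbx3, Mllt3 and Bmi1 were the other members higher after CWHM-823 plus tGro-b, with differences from 0.46 to 1.44. Runx1, Erg, Fli1 and Hoxa9, also stem cell regulators, differed by 0.04, 0.17, 0.14 and 0.07 and did not pass.

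**Figure D3:**
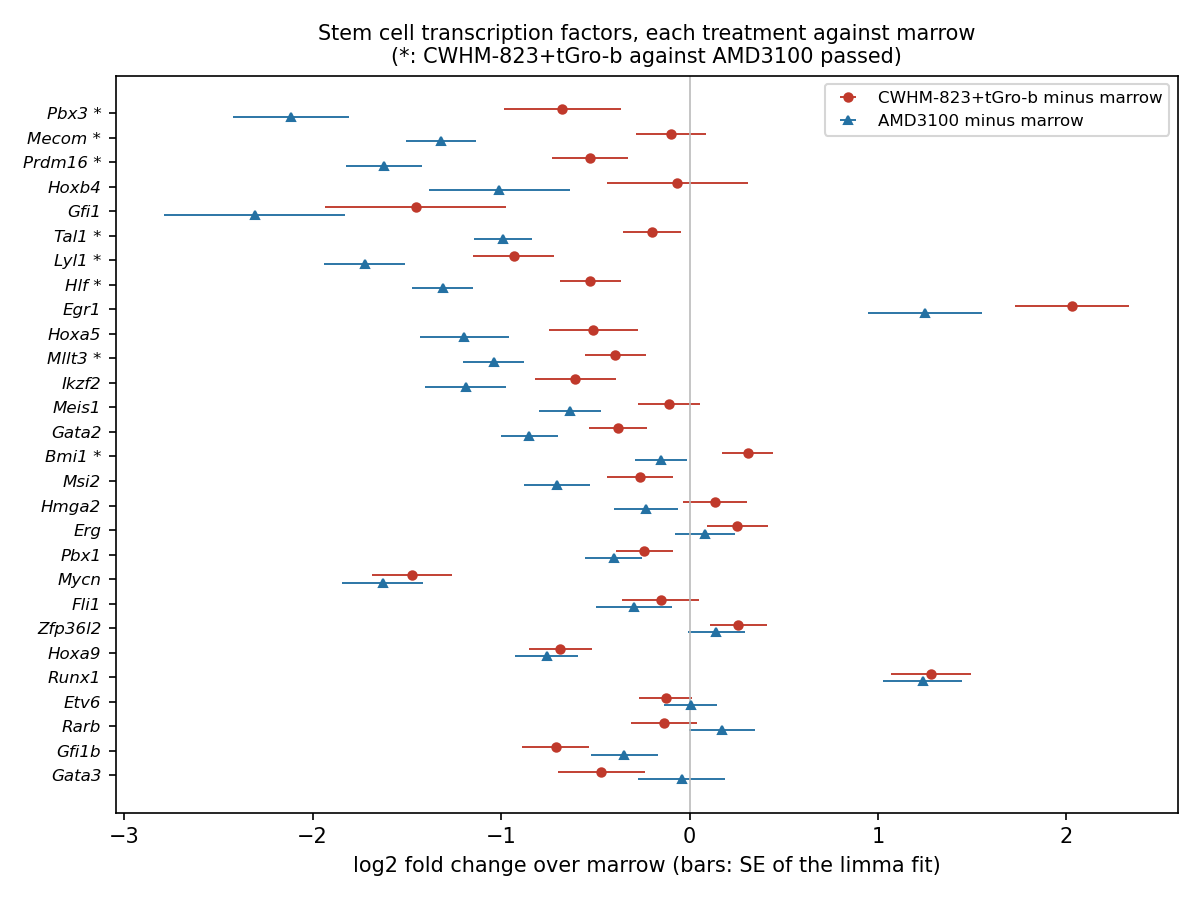
Difference from marrow of 28 stem cell transcription factors (log2; points are fitted differences, bars SE; circles CWHM-823+tGro-b, triangles AMD3100), ordered by the difference between the 2 treatments. For the 8 genes with a star the triangle lies to the left of the circle, and 15 genes passed as lower than marrow after AMD3100 against 1 after CWHM-823+tGro-b.

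Among 28 stem and progenitor surface markers 5 passed as higher and 0 as lower (3 lower at an unadjusted p under 0.05). Over all genes 8.27% passed as higher. The list's median was -0.04 and 13 differences lay above 0. Slamf1, which encodes the stem cell marker CD150, read -2.38, -2.17 and -2.49 after CWHM-823 plus tGro-b, was not well above background on any AMD3100 array, and was at least 2.26-fold higher (adjusted p = 0.0248). Mmrn1, a stem cell and megakaryocyte gene, read 1.15, 1.01 and 0.38 against -0.74, -0.05 and -0.93 (1.42 ± 0.22, adjusted p = 0.0186). Neither gene overlapped between the groups. Cd34 differed by 0.72 ± 0.15 (adjusted p = 0.0258) and Esam, an endothelial and stem cell adhesion molecule, by 0.90.

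Flt3, a marker of the multipotent progenitors that have left the stem cell state, read 2.84, 2.39 and 2.55 against 3.18, 2.62 and 2.84 (-0.28 ± 0.20, adjusted p = 0.306), and these groups overlapped. Procr, another stem cell marker, differed by 0.99 (adjusted p = 0.0589) and did not pass. The summed level of the 12 LSK markers was 94.2, 65.5 and 85.2 after CWHM-823 plus tGro-b and 65.4, 47.7 and 62.4 after AMD3100, so that the groups came close without overlapping. Of these markers 6 passed as higher and 0 as lower (0 lower at an unadjusted p under 0.05; median 0.66). Against marrow 6 were lower and 1 higher after AMD3100 (7.62% and 5.47% of all genes). After CWHM-823 plus tGro-b 0 were lower and 1 higher (0.315% and 0.765%). Without the block 0 of the 8 transcription factors and 0 of the 5 surface markers passed with limma (7 and 7 members at an unadjusted p under 0.05). With an array left out, 0 to 6 transcription factors and 0 to 7 surface markers passed as higher.

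Chaperones and unfolded protein response genes formed the other large group. Of 23 measured, 11 passed as higher and 0 as lower (0 lower at an unadjusted p under 0.05), with a median of 0.69. Herpud1, which marks faulty proteins of the endoplasmic reticulum for removal, read -0.28, -0.71 and 0.27 against -1.87, -2.11 and -0.95 (1.40 ± 0.18, 2.65-fold, adjusted p = 0.0108). Hspa5, the main chaperone of the endoplasmic reticulum (BiP), read 3.99, 3.78 and 3.72 against 2.96, 2.84 and 2.85 (0.95 ± 0.18, adjusted p = 0.024). Dnajb1, a cytosolic co-chaperone, read 2.80, 2.60 and 2.22 against 1.78, 1.45 and 1.53 (0.95 ± 0.17, adjusted p = 0.0221). All 3 genes were separated without overlap. Asns, a target of the amino acid response, Hsph1, Bag3, Xbp1 and Pdia6 also passed, with differences of 0.69 to 0.95. Dnaja1 (0.80), Hspe1 (0.78) and Hspd1 (0.72) passed too, but their probes are placed on other chromosomes than the genes and may read near-identical copies.

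Upstream stretches of 2 of these genes are shown for the endoplasmic reticulum stress element, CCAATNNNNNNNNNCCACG, in capitals. They are those of Hspa5 (chr2:34771980-34772089, plus strand) and Pdia6 (chr12:17266479-17266588, plus strand), from RefSeq, build GRCm38.p6, ending at the base before the start.
Hspa5: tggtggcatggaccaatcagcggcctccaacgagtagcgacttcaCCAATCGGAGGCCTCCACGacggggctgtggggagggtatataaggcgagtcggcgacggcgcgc
Pdia6: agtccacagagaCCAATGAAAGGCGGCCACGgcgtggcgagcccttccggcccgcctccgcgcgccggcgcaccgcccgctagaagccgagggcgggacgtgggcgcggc
In the window from 250 bases before to 50 after the start, on both strands, the element was held by 4 of the 20 listed genes with a promoter in the table and by 0.16% of the 13822 tested genes. The other 2 holders, Calr and Hsp90b1, differed by 0.59 and 0.26 and did not pass, so the element was held by 2 of the 11 that passed.

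Against marrow, Hspa5 differed by 0.61 after CWHM-823 plus tGro-b (adjusted p = 0.195) and by -0.34 after AMD3100 (adjusted p = 0.212). Of the 23 members, 2 passed as higher than marrow after CWHM-823 plus tGro-b (0.765% of all genes did; list median 0.38) and 2 as lower after AMD3100 (7.62% of all genes; list median -0.29). G-CSF arrays read 4.20, 3.98 and 3.99 for Hspa5, above each AMD3100 array and overlapping the CWHM-823 plus tGro-b arrays. The CWHM-823 plus tGro-b minus G-CSF difference was -0.23 (adjusted p = 0.428 with limma). Without the block 0 of the 11 passed with limma, with 13 members at an unadjusted p under 0.05. With an array left out, 0 to 10 members passed as higher.

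Respiratory chain genes differed by small amounts in 1 direction. All 32 measured subunits had a difference above 0 (median 0.55), and 12 passed as higher and 0 as lower (0 lower at an unadjusted p under 0.05). Sdha, the catalytic subunit of complex II, read 1.03, 0.32 and 0.14 against -1.25, -0.97 and -0.62 (1.44 ± 0.26, 2.72-fold, adjusted p = 0.0221). Cox4i1, a subunit of complex IV, read 2.37, 1.62 and 2.13 against 1.02, 0.63 and 1.37 (1.04 ± 0.20, adjusted p = 0.0235). The groups did not overlap in either gene. The medians against marrow were 0.28 after CWHM-823 plus tGro-b and -0.23 after AMD3100, and 3 of 32 subunits were lower than marrow after AMD3100, against 7.62% of all genes. In 10 equal groups of all genes by level, the median difference ranged from -0.46 in the dimmest to 0.16 in the second brightest. The subunits were not matched to these groups. Without the block 0 of the 12 passed with limma and 12 had an unadjusted p under 0.05.

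Genes for building ribosomes followed in part. Of 26 ribosome biogenesis and MYC target genes, 7 passed as higher and 1, Rrp12, as lower (median 0.41). Ppan, a nucleolar maturation factor, read -0.45, -1.02 and -0.83 against -2.23, -2.49 and -1.86, with no overlap (1.43 ± 0.19, adjusted p = 0.0121), whereas Myc itself differed by -0.02. The cytosolic ribosomal protein genes had a median of 0.15, with 1 of 32 higher (Rps9) and 1 lower (Rps3). Rps3, at -0.62, differed by 0.10 when its 3 probes were averaged. Of 23 sterol genes 4 passed as higher and 0 as lower (0 lower at an unadjusted p under 0.05; median 0.31). Of 25 glycolysis and hypoxia genes 4 passed as higher, against 8.27% of all genes, and 0 as lower (0 lower at an unadjusted p under 0.05, median 0.28). They included Slc2a3, a glucose transporter, at 2.65, 2.20 and 2.45 against 1.54, 1.17 and 1.48 (1.04 ± 0.17, adjusted p = 0.0205).

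**Figure D4:**
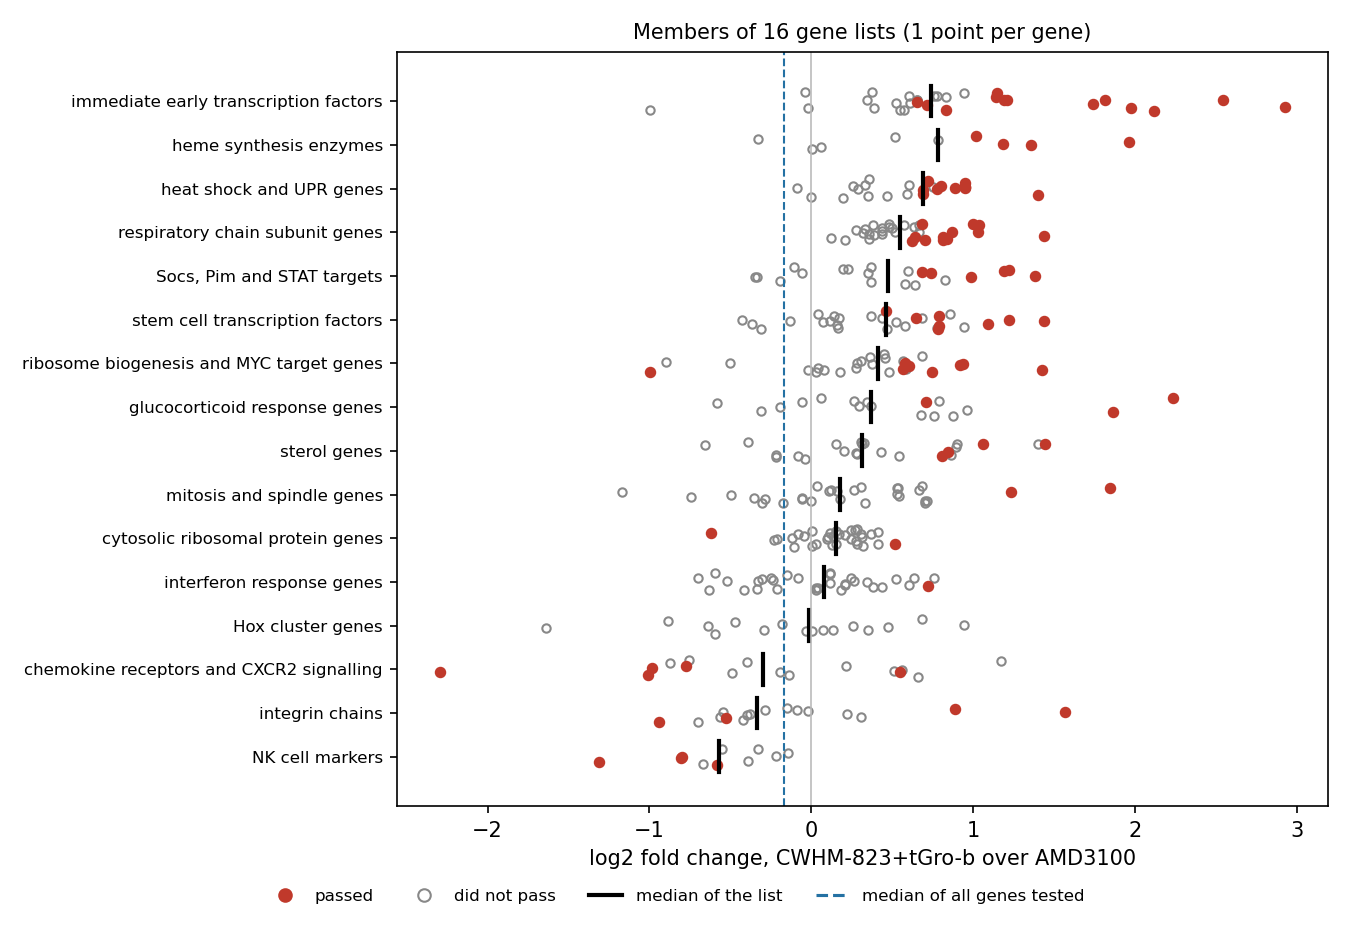
Difference of each measured gene in 16 lists (log2, CWHM-823+tGro-b over AMD3100; points are genes, filled where they passed, black bars the list medians, dashed line the median of all genes, -0.17). Immediate early, heme, heat shock and UPR, and respiratory chain genes lie mostly to the right of the line, and NK cell markers to the left.

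Cell cycle genes differed little between the 2 treatments. Of 29 mitosis and spindle genes 2 passed as higher and 0 as lower (2 lower at an unadjusted p under 0.05; median 0.18). Ccna2, cyclin A2, read -1.19, -1.42 and -1.70 against -2.20, -3.32 and -2.51 (1.24 ± 0.27, adjusted p = 0.0294), with marrow at -0.14, 0.01 and 0.03. Aspm, a spindle pole protein, was above background on 3 arrays against 0 and at least 2.79-fold higher. Against marrow 19 members were lower after AMD3100 (median -1.23; 7.62% of all genes were lower) and 4 after CWHM-823 plus tGro-b (median -0.91; 0.315% of all genes). Cdk1 differed by -1.17 (adjusted p = 0.0568), but its 3 probes disagreed and their mean gave 0.90. Of 29 DNA replication genes 4 passed as higher and 1, Cdc45, as lower, and of 22 homologous recombination and Fanconi genes 3 were higher (Fancl, Fancd2, Brca2) and 0 lower (2 lower at an unadjusted p under 0.05). None of 16 Hox cluster genes passed in either direction (3 higher and 1 lower at an unadjusted p under 0.05 with limma).

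Of the genes of the receptors that the drugs address, Itgb1 passed and Cxcr4, Cxcr2 and Itga4 did not. Cxcr4, the AMD3100 target, read 3.74, 3.58 and 3.23 after CWHM-823 plus tGro-b and 3.97, 3.51 and 3.65 after AMD3100, with overlap (-0.19 ± 0.21, adjusted p = 0.492). Cxcr2, the receptor of tGro-b, read -0.85, -0.20 and -0.93 against 0.24, -0.39 and -0.35 (-0.49 ± 0.27, adjusted p = 0.197). Itga4 read 1.71, 1.10 and 2.00 against 1.00, 1.07 and 1.81 (0.31 ± 0.18, adjusted p = 0.21). Its partner Itgb1 read 1.33, 0.61 and 0.33 against -0.38, -0.02 and -0.01 and passed (0.89 ± 0.24, adjusted p = 0.0428). The G-CSF receptor gene Csf3r has its probe placed on chromosome 19 and the gene on chromosome 4, and its difference was -0.39 ± 0.16 (adjusted p = 0.107).

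Of 16 integrin chains, 2 were higher (Itgb5, Itgb1) and 2 lower (Itga9, Itgam), with a median of -0.33. Over all genes 8.27% passed in each direction. Under quantile normalization the Itgam difference was -0.09 (adjusted p = 0.654), and it passed in 0 of the 6 fits that left out an array. Of 16 chemokine receptor and signalling genes 1 was higher, Rgs18, and 4 were lower: Ccr7 (-0.78 ± 0.15), Rgs16 (-0.98 ± 0.21), Cxcr3 (-1.01 ± 0.22) and Cmklr1, which was above background on 2 arrays against 3. Ccr7, a homing receptor of lymphoid cells, read -2.43, -2.07 and -2.96 against -1.54, -1.59 and -2.00. Genes of the sphingosine phosphate system, which draws cells into blood, passed in both directions. Sgpl1 (0.91 ± 0.15) and Sgpp1 (1.06 ± 0.21), which break the lipid down, Spns2 (0.94 ± 0.23), an exporter, the kinase Sphk2 (0.65) and the receptor S1pr4 (0.57) passed as higher. The exporter Mfsd2b (-0.66 ± 0.17) and the receptor S1pr3 (-1.10) passed as lower. S1pr1, the main egress receptor, read -1.61, -1.84 and -1.61 against -1.71, -2.08 and -1.39 and did not pass (0.04 ± 0.17, adjusted p = 0.876).

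Cd69, an early activation gene that pulls S1pr1 from the surface, was high in both blood groups alike, at 0.46, 0.32 and 1.03 against 0.49, 0.04 and 0.67 (0.21 ± 0.22, adjusted p = 0.473). In marrow it read -4.19, -3.67 and -3.39. Of 35 adhesion and homing genes 8 were higher, among them Cd63, Alcam and Cd81, and 1 lower, Jam3 (median 0.19). Over all genes 8.27% passed in each direction. Cd81, a tetraspanin, read 2.14, 1.72 and 1.78 against 0.39, 0.82 and 1.33, with no overlap (1.04 ± 0.22, adjusted p = 0.0285).

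Lineage genes within the LSK gate were mixed, where 8.27% of all genes passed in each direction. Of 23 lymphoid priming genes 1 passed as higher, Foxo1 (1.04 ± 0.21), and 2 as lower, Ccr7 and Tcf7, a T-lineage factor that read 0.57, 0.20 and -1.23 against 1.28, 1.17 and 0.97 (-1.30 ± 0.33, adjusted p = 0.0365). The median was -0.24. Of 23 myeloid priming genes 2 were higher and 1, Nkg7, lower. Cebpb, a factor of emergency myelopoiesis, read 0.21, 0.36 and 0.34 against -0.53, -1.28 and -0.87, with no overlap (1.20 ± 0.24, adjusted p = 0.0251). Of 19 megakaryocyte genes 6 were higher and 1 lower (median -0.10). Thbs1, thrombospondin, read -2.10, -2.15 and -2.04 against -2.99, -3.31 and -3.52 (1.18 ± 0.22), while Gp6, a platelet collagen receptor, read -2.48, -1.87 and -2.93 against -0.78, -0.57 and -1.34 (-1.53 ± 0.23). Of 32 interferon response genes 1 passed, Tnfsf10 at 0.72.

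Markers of mature cells other than red cells passed more often as lower than as higher, while 8.27% of all genes passed in each direction. Dimmer genes in general leaned lower too, with medians of -0.46 to -0.22 in the 5 dimmest of 10 groups by level. The part of signal level in these markers was not tested. NK cell markers had 4 of 10 lower and 0 higher (0 higher at an unadjusted p under 0.05; median -0.57): Xcl1, Gzma, Il2rb and Nkg7. Their summed level was 9.03 to 13 after CWHM-823 plus tGro-b and 14.2 to 18.2 after AMD3100, which do not overlap. Dendritic cell markers had 3 of 12 lower (Ccr7, Ciita, Zbtb46), eosinophil markers 2 of 6 (Il5ra, Ear1) and mast cell markers 1 of 10 (Tpsab1), with none higher in the first 2 sets at an unadjusted p under 0.05 and 2 in the last. Neutrophil markers had a summed level of 2.44 to 3.93 against 3.53 to 5.61, and endothelial markers of 9.46 to 10.6 against 11 to 11.7. None of the members of these last 2 lists passed, with 1 and 6 lower at an unadjusted p under 0.05. T cell markers summed to 9.52 to 12.9 against 10.4 to 13.9, B cell markers to 33.2 to 48.6 against 47.2 to 72.5, monocyte markers to 26.8 to 40.4 against 37.9 to 40.3, and platelet markers to 7.58 to 10.3 against 8.85 to 11.2. In these 4 lists 3 members passed as higher (Cd28, Pf4, Gp9) and 3 as lower (Cd22, Fcgr1, Gp6). The B cell list had a median difference of 0.48 although its summed level was lower than that of AMD3100 on each of the 3 slides. The part of these cells in the differences above was not tested.

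Jchain, the joining chain of secreted antibodies and a gene of plasma cells, read 0.29, 0.07 and -2.91 after CWHM-823 plus tGro-b. It was not well above background on any AMD3100 array and was at least 6.57-fold higher (adjusted p = 0.0121). Array 3 stood well below arrays 1 and 2, and marrow read -2.42, -3.76 and -5.77.

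The genes with the largest decreases after CWHM-823 plus tGro-b were dim. The 12 largest decreases among genes above background on all 6 arrays were H2al1o, Cib3, Ptprt, Gpr137c, Ly6g5c, Olfr93, Olfr617, Rbm20, Ppp1r1c, Mgat4e, Olfr1273-ps and Aoc1, from -2.03 to -1.73. H2al1o, a histone variant of the testis, read -2.28, -2.35 and -3.69 against -0.13, -0.49 and -1.60 (-2.03 ± 0.20, adjusted p = 0.00471). Olfr93, an olfactory receptor, read -3.55, -3.22 and -3.55 against -1.69, -1.41 and -1.77, with no overlap (-1.82 ± 0.14, adjusted p = 0.00186). Rbm20, a splicing factor of muscle, read -3.17, -3.07 and -3.00 against -1.20, -1.01 and -1.61 (-1.80 ± 0.40, adjusted p = 0.0297). For all 3 the AMD3100 level was above marrow too, by 1.06 for H2al1o (adjusted p = 0.0166), 1.33 for Olfr93 (adjusted p = 0.00267) and 1.45 for Rbm20 (adjusted p = 0.0455). Of the rest of the 12, Olfr1273-ps also passed against marrow (1.25, adjusted p = 0.0392). Cib3, Ptprt, Gpr137c, Ly6g5c, Olfr617, Ppp1r1c, Mgat4e and Aoc1 did not, with differences of 0.93 to 1.65 and adjusted p-values of 0.0522 to 0.125 with limma.

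Among genes above background in AMD3100 and not after CWHM-823 plus tGro-b, Fam229b was at least 4.52-fold and Kynu, an enzyme of tryptophan breakdown, at least 3.7-fold higher after AMD3100. Dhh, desert hedgehog, had a bound of at least 3.35-fold but did not pass (adjusted p = 0.0694). Families that were picked after their values were seen showed the same lean. Of 546 olfactory receptor genes measured, 98 were lower and 1 higher (median -0.65), and of 137 vomeronasal receptor genes 32 were lower and 0 higher (median -0.77). Over all genes 8.27% passed in each direction. Against marrow the olfactory median was -0.18 after CWHM-823 plus tGro-b and 0.47 after AMD3100. Over all genes, the difference also varied with signal level, and the families were not matched to it. In 10 equal groups of genes by level the median difference was -0.46 in the dimmest, 0.16 in the second brightest and was -0.06 in the brightest. The share that passed as lower was 9.24% in the dimmest and 4.79% in the second brightest, and the share higher 5.5% and 14.1%. The AMD3100 arrays had the lowest signal of the series at their 75th percentile, and the part of signal level in the lower genes was not tested.

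**Figure D5:**
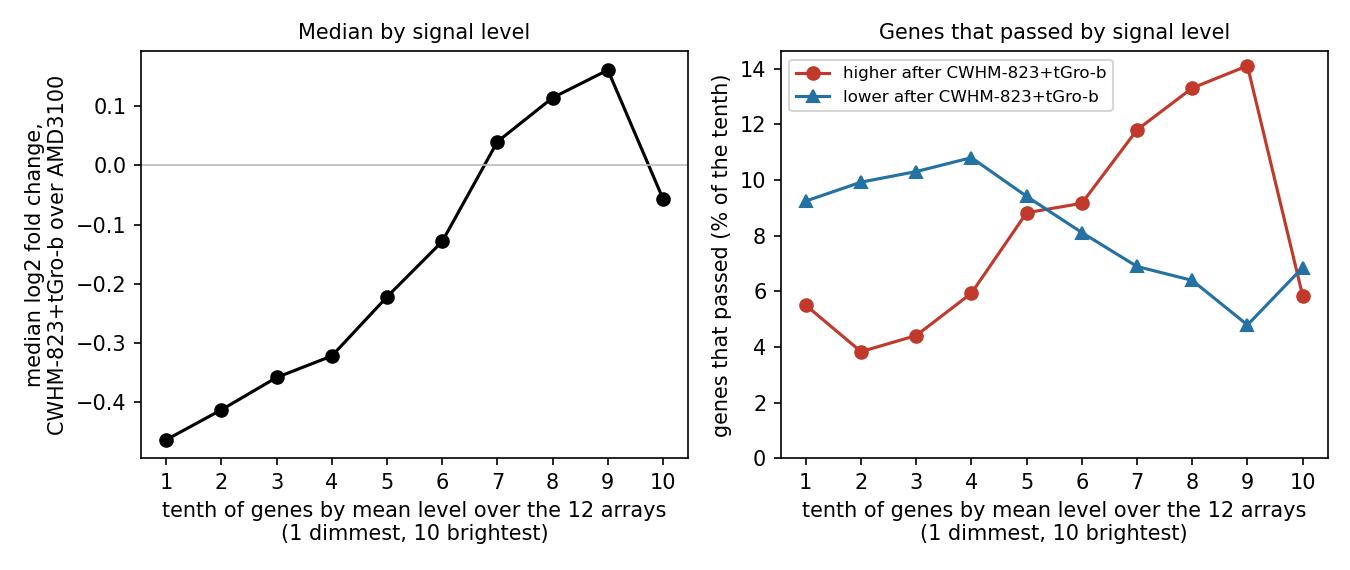
Left, median difference (log2, CWHM-823+tGro-b over AMD3100) in 10 equal groups of genes ordered by their mean level over the 12 arrays. Right, percent of each group that passed as higher (circles) or lower (triangles): lower genes outnumber higher ones in the 5 dimmest groups, and higher ones outnumber lower ones from the sixth to the ninth.

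The remaining large increases of the rule were Rgcc, a regulator of the cell cycle (1.89 ± 0.33), Sccpdh (1.86 ± 0.23), the long noncoding RNA Lincpint (1.83 ± 0.37) and Tyw1, an enzyme of tRNA modification (1.81 ± 0.20). They differ in how they stand to marrow. Rgcc read -0.30, -0.67 and -1.11 against -2.99, -1.40 and -3.36. Both groups lay above marrow at -4.35, -4.24 and -5.16, where 1 of 3 arrays was above background. Sccpdh read -0.65, -0.81 and -1.38 against -2.13, -2.70 and -3.59, with marrow at -0.50, -1.15 and -1.93, and it was lower than marrow after AMD3100 by 1.62 (adjusted p = 0.007). Tyw1 was likewise lower than marrow after AMD3100 (-1.25, adjusted p = 0.0109), and its difference from marrow was 0.56 after CWHM-823 plus tGro-b (adjusted p = 0.287).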

How the data were processed

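LSK RNA from 12 mouse samples was amplified (WTA2), labelled with Cy5 and hybridised to Agilent arrays, per the labels' protocols. The deposited scanner output gives spot intensity from Agilent Feature Extraction 11.5.1.1, per the submitters' processing notes and the file headers; the red processed signal is background-subtracted and not scaled between arrays. The authors' own normalized intensity values, also deposited, served as an alternative; their normalization is not given in the sources used here.

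Control and outlier spots were left out, replicate spots averaged, log2 taken and each array's 75th percentile subtracted. A probe stayed in (29497 did) if every array of some group read it well above background, while 146 went out since outlier flags left them no value on some array. The probe with the highest mean stood for each gene. Names came from the files, updated through RefSeq (GRCm38.p6); positions are mm9. limma 3.58.1 (R 4.3.3) fitted 4 group means with the slide as a fixed block over all 12 arrays, with Benjamini-Hochberg adjustment over 23795 genes. The fit was tested on simulated data.

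Named genes were the 12 largest changes each way among genes passing, above background on all 6 arrays and of 1 sign on all 3 slides, the 3 largest bounds each way, up to 4 members of smallest p per list, and 14 fixed receptors and markers; any other gene was named after its values were seen. A bound sets the bright group's mean against the higher of the dim probe's signal and the lowest signal well above background. The members and the 30 gene and 12 marker lists were chosen with earlier results of these data known. Lists are described by counts and medians, without a set test. The number of arrays limits the precision.

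Same-numbered arrays share a slide: their deviations from group means correlated across genes at Pearson's r from 0.26 to 0.616 in 18 pairs, against a median of -0.24 in the 36 other pairs. The deviations of a group sum to 0 for each gene, so the negative value follows from the positive ones and adds no separate evidence. Alternatives were no block, a random block, other array sets, background corrections, normalizations, filters, probe rules, variance priors and leaving out each array; cyclic loess was added after seeing the data.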

Additional observations from a re-analysis of the deposited data

How the results depend on the processing

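The main count was 3935 genes. It was 37 without the replicate block (29 higher, 8 lower), 1379 with the 9 blood arrays alone (751 higher), 2014 with normexp background correction (1061 higher), 1560 without the filter on dim probes (860 higher), 6003 with an intensity trend and robust prior (2854 higher) and 1425 with a fold minimum of 2. With the 6 arrays compared alone limma called 0, of 7002 at an unadjusted p under 0.05. With an array left out it lay between 25 and 3060. A random slide block, quantile and cyclic loess normalization, the authors' table, the stricter filter, both other probe rules and leaving out marrow array 3, which stood apart in neutrophil markers, gave 3540 to 5153. Averaging the probes of a gene turned the direction of Cdk1 (0.90) and Rps3 (0.10). Of the 42 lists, 34 kept the sign of their median under every setting run and 8 did not. The median of the erythroid genes, 0.45, was 0.11 with normexp and -0.12 over those above background on all 12 arrays. Of the 115 named genes that passed, Aoc1, Cib3, Itgam, Kynu and Rps3 did not pass with quantile normalization. The causes were not tested. With 3 arrays per group, and the time after CWHM-823 plus tGro-b not given, time and treatment cannot be told apart. Signal over background limits the dim genes.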

Other observations

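Some genes outside the lists passed in all 6 fits that left out an array. They were named after their values were seen. Abcg2, the transporter behind the side population of stem cells, read -0.85, -1.26 and -0.31 after CWHM-823 plus tGro-b and -3.23, -3.52 and -2.11 after AMD3100, where 1 of 3 arrays was above background. The groups did not overlap (2.15 ± 0.17, adjusted p = 0.00186 with limma), and marrow read -0.98, -1.06 and -0.27. Rps6ka5, a kinase that acts on chromatin downstream of MAP kinases, was at least 1.55-fold higher (adjusted p = 0.00186). Tars, a transfer RNA synthetase, passed in 5 of the 6 fits and also without the slide block, with a difference of 1.37 (adjusted p = 0.00834).

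The counts that follow stand beside 8.27% of all genes that passed in each direction. Of 13 apoptosis genes of the Bcl2 family 2 passed as higher and 0 as lower (1 lower at an unadjusted p under 0.05, median 0.30). Of 15 circadian clock genes 2 passed as higher and 0 as lower (2 lower at an unadjusted p under 0.05; median 0.38). Of 24 CDK inhibitors, D cyclins and G1 genes 2 were higher, Cdkn1a (0.60) and Tob1 (0.76), and 1 was lower, Cdkn2a (-1.56). Cdkn1a, which encodes p21, is a brake on the cell cycle, as is Cdkn2a. Of 83 keratin and keratin-associated genes, a family picked after its values were seen, 12 were lower and 2 higher (median -0.58).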
